A study of Mus musculus with 22 samples.

Results

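Gastruloids are aggregates of mouse embryonic stem cells that form cell types of the gastrulating embryo in culture. Those of day 3 and day 3.5 compared here come from the third of the study's experiments with MULTI-seq, in which the cells of each gastruloid receive a lipid-anchored DNA barcode of their own before pooling, so that a cell can be traced to its gastruloid. They were chosen as the gastruloids with a barcode call that the authors' deposited cell table places at either day: 24 of day 3 with 5778 cells and 16 of day 3.5 with 4679 cells, which is 40 of the 136 gastruloids with a call in the whole series. All were wild type, grew from the E14Tg2A line of mouse embryonic stem cells and had the same treatment, with no untreated arm. Per the labels' protocols, 300 cells were put in a well and aggregated over 48 h before 3 µM CHIR99021 was given, an inhibitor of the kinase GSK3 that switches on Wnt signalling. In the standard gastruloid protocol this inhibitor is given as a pulse and then washed out. The groups differ in the day of collection, and the study follows gastruloids at steps of 0.5 days and asks how far those of the same age differ. Day 3 was a pool of its own, run on 2 lanes, whereas day 3.5 shared a pool of 4 lanes with 16 gastruloids of day 4. Day and pool are thus the same split, and they cannot be told apart in any difference between day 3 and day 3.5 given here. Each day comes from a single pool, so p-values measure the spread between these gastruloids only.

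In the mouse embryo, gastrulation starts when epiblast cells, which express pluripotency factors such as Oct4 (Pou5f1), enter the primitive streak under Wnt and Nodal signals and switch on T (brachyury). Cells that leave the streak early form endoderm and anterior mesoderm with the help of Nodal and Eomes. Later the streak and the caudal epiblast keep T and Cdx genes on and feed presomitic mesoderm (PSM), the tissue of the future somites, and the neural tube of the trunk. Hox genes come on one after another in this phase, in the order in which they lie in their 4 clusters, and set the position of cells along the body axis. Gastruloids are known for forming this posterior part of the body plan.

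The 6 lanes held 248418669 to 307883815 UMIs, which are molecule counts after removal of PCR copies. Between 2831 of 5545 and 2947 of 6541 cells of the day 3 lanes carried the barcode of 1 gastruloid, against between 4784 of 6265, the lowest share, and 4828 of 5716, the highest, in the lanes of the other pool. Any pair of lanes, the 10X library of day 3 described last included, shared 2 to 15 cell barcodes, at most 0.278% of the smaller of the pair. The median cell of a day 3 gastruloid had 28670 ± 974.9 UMIs (SD, n = 24) and that of a day 3.5 gastruloid 36130 ± 2719 (SD, n = 16), with ranges of 26860 to 30460 and 31680 to 41040 that did not overlap (permutation test, two-sided, adjusted p = 4e-05). Ribosomal protein genes gave 32.9% ± 0.413 of the UMIs of the median cell at day 3 and 29.7% ± 1.16 at day 3.5, again with no overlap and the same adjusted p. The UMI sum of a gastruloid was 4309000 to 9958000 at day 3 and 3082000 to 20790000 at day 3.5. The cluster names of the authors' table were checked against 8 markers each. In Caudal Epiblast 7 of 8 markers were higher than in all other cells on either day, in Primitive Streak 5 of 8 at day 3 and 6 of 8 at day 3.5, and in Early Neurectoderm 7 of 8 and 5 of 8. The exceptions in Primitive Streak included Eomes and Mesp1, which were higher in the remaining cells on both days, although Primitive Streak had the highest level of 7 of its 8 markers among these 3 clusters. By that measure Caudal Epiblast was highest for 6 of 8 on either day, and Early Neurectoderm for 5 of 8 at day 3 and 4 of 8 at day 3.5. The exception in Early Neurectoderm was Otx2 at day 3, joined at day 3.5 by Sox2 and Ncam1, with Otx2 then at 0 CPM. The blood globins Hba-x, Hbb-bh1 and Hbb-y had 0 UMIs in all gastruloids of both days.

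The makeup of the gastruloids differed between the days. Primitive Streak cells were the majority at day 3 and a minority at day 3.5, while Caudal Epiblast, Caudal Neurectoderm and Early Posterior PSM, the 3 caudal types of epiblast, neural tissue and mesoderm, took a larger share at day 3.5. Of 14 cluster names with a mean share of at least 1% on either day, 11 differed at an adjusted p under 0.05 (two-sided permutation test of the difference in mean percent, Benjamini-Hochberg adjustment), with 7 higher and 4 lower at day 3.5.

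Primitive Streak made up 33.2% to 70.6% of a gastruloid at day 3, with a median of 60.3%, and 4.29% to 21.3% at day 3.5, with a median of 13.1%. The means were 57.1% ± 9.09 (SD, n = 24) and 13.2% ± 5.81 (SD, n = 16; permutation test, adjusted p = 4.67e-05). Every gastruloid of day 3.5 lay below every gastruloid of day 3. Early Nascent Mesoderm, the mesoderm that has just left the streak, fell from 11.1% ± 7.32 to 2.81% ± 3.62 (permutation test, adjusted p = 0.000105) and Anterior Primitive Streak from 2.33% ± 2.06 to 0.315% ± 0.446 (permutation test, adjusted p = 4.67e-05). Cells named PGCs, the primordial germ cells, numbered 58 at day 3 and 1 at day 3.5, which is 1.02% ± 0.654 against 0.0195% ± 0.0779 of a gastruloid. In these 3 clusters the ranges of the days overlapped. The falls of Anterior Primitive Streak and PGCs depended on the labels used, as the atlas labels given next show.

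The authors' table holds a second label for each cell, the type of the mouse embryo atlas to which it mapped, and with these labels 8 of 9 tested types differed, 5 higher and 3 lower. Primitive Streak again fell, from 60.6% ± 10.5 to 8.39% ± 5.55 (permutation test, adjusted p = 3e-05), and the type named Epiblast from 8.53% ± 3.13 to 0.491% ± 0.723 (the same adjusted p). The cluster named Epiblast showed no such fall, at 1.36% ± 0.929 and 1.5% ± 1.42 (permutation test, adjusted p = 0.700). Anterior Primitive Streak, at 2.42% ± 3.06 and 1.27% ± 1.53, did not pass (permutation test, adjusted p = 0.125). Cells mapped to PGC numbered 14 at day 3 and 19 at day 3.5, a share of 0.221% against 0.516% that lay under the limit of 1% for a test, and so did not fall as the cells named PGCs by cluster did. Caudal epiblast rose from 10.9% ± 4.61 to 40.1% ± 16.7 and intermediate mesoderm from 0.419% ± 0.678 to 20.6% ± 20.3 (adjusted p = 3e-05 for both). Cells mapped to presomitic mesoderm numbered 0 at day 3 and 17 at day 3.5, or 0.238% of a gastruloid. The cluster Early Posterior PSM made up 22.9% at day 3.5, so the labels differ on this tissue too. The atlas types to which the cells of that cluster mapped were not tested.

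In the cluster names, Caudal Epiblast rose from 3.05% ± 1.5 to 16.4% ± 8.18 (permutation test, adjusted p = 4.67e-05), with 0.443% to 5.43% at day 3 and 3.74% to 34.2% at day 3.5. Caudal Neurectoderm rose from 2.95% ± 3.09 to 17.6% ± 12.4 (permutation test, adjusted p = 8e-05) and Early Posterior PSM from 5.12% ± 3.62 to 22.9% ± 21.3 (permutation test, adjusted p = 0.000196). Among the smaller clusters, Early Spinal Cord rose from 0.175% to 6.07%, Late Posterior PSM from 0.0369% to 2.39%, Late Spinal Cord from 0.0360% to 1.66% and Notochord from 0.455% to 1.25% on average. The Notochord call (permutation test, adjusted p = 0.0420) was lost with a minimum of 100 cells (0.0750) and without lane A (0.126) or B (0.0676) of day 3 or lane B (0.0648) or D (0.0555) of the day 3.5 pool. Early Neurectoderm, at 13.6% ± 9.09 and 9.20% ± 11.3, did not pass (permutation test, adjusted p = 0.198), but with a minimum of 100 cells per gastruloid the difference moved from -4.38 to -7.13 percentage points and passed (adjusted p = 0.0267). Epiblast and Late Neurectoderm did not pass.

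**Figure D1:**
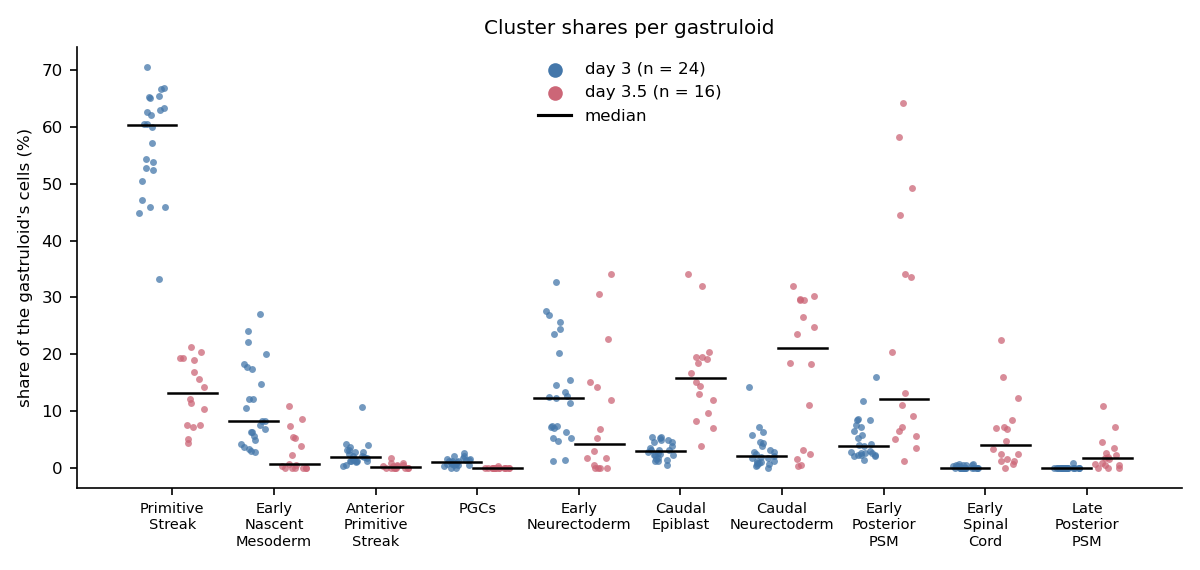
Share of each gastruloid's cells (%, vertical axis) in 10 clusters; points are gastruloids (blue, 24 of day 3; red, 16 of day 3.5) and lines are medians. Primitive Streak drops from a median of 60.3% to 13.1% without overlap, and the shares of Early Posterior PSM and Caudal Neurectoderm spread widely at day 3.5.

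The gastruloids of day 3.5 differed among themselves in which caudal tissue they held. In 6 of the 16, Early Posterior PSM made up over 30% of the cells, with 33.6% to 64.2%, and in these Caudal Neurectoderm reached 0.204% to 11% and Early Neurectoderm 0% to 1.6%. In the other 10, Early Posterior PSM made up 1.25% to 20.3%, Caudal Neurectoderm 18.2% to 32% and Early Neurectoderm 1.61% to 34.1%. The limit of 30% was set after the shares were seen, and these are descriptions without a test. At day 3 the highest share of Early Posterior PSM was 16.0% and that of Caudal Neurectoderm 14.1%.

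**Figure D2:**
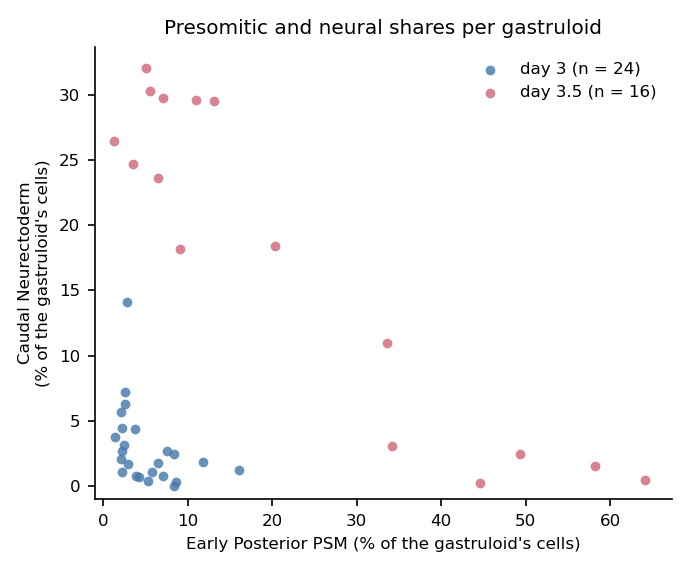
Early Posterior PSM (horizontal axis, % of a gastruloid's cells) against Caudal Neurectoderm (vertical axis, %), 1 point per gastruloid, blue for day 3 and red for day 3.5. The gastruloids of day 3.5 run from 32% Caudal Neurectoderm with little PSM to 64.2% PSM with little Caudal Neurectoderm, while those of day 3 stay near the origin.

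The authors also mapped each cell to a mouse embryo atlas, which gives it an embryonic day. The mean mapped stage of a gastruloid was 7.05 to 7.27 days at day 3 and 7.62 to 8.21 days at day 3.5, so the groups did not overlap. The difference between the means was 0.713 days (7.11 ± 0.0440 against 7.82 ± 0.145 SD; permutation test, adjusted p = 3.57e-05). Cells mapped to the stage of 7.0 days made up 60.4% ± 7.38 of a day 3 gastruloid and 6.42% ± 2.57 of a day 3.5 gastruloid, and cells mapped to 8.0 days 1.92% ± 1.41 and 31.2% ± 9.11. The stage also moved inside each of the 3 clusters shared by the days: by 0.276 days in Primitive Streak, 0.364 in Caudal Epiblast and 0.286 in Early Neurectoderm, with no overlap between the groups of gastruloids in any of them (permutation tests, adjusted p of 3.57e-05, 3.69e-05 and 3.57e-05). Cells that the atlas gives no single stage were left out of these means, and they were 2.86% of the day 3 and 10.9% of the day 3.5 cells. The share left out was 1.46% against 14.3% in Primitive Streak, 3.57% against 6.87% in Caudal Epiblast and 5.9% against 20.6% in Early Neurectoderm, and its part in the shifts within clusters was not tested.

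Gene expression was first compared on UMIs summed over whole gastruloids, where more cells of a type and more RNA per cell cannot be told apart. The genes of the posterior body axis rose: all 23 Hox genes that could be tested were higher at day 3.5, as were 9 of 12 caudal progenitor genes and 11 of 15 genes of presomitic mesoderm and segmentation. Pluripotency genes and the factors of the early streak fell, with 18 of 23 and 11 of 13 lower. Calls were common in this comparison, at 74.8% of the 11981 genes tested (edgeR quasi-likelihood test, Benjamini-Hochberg adjustment), with 39.3% of genes higher and 35.6% lower, and they were rarer at 2-fold or more, with 2.8% higher and 2.9% lower. The median change over all genes was 0.03 on the log2 scale. Scaling by library size alone moved that median to 0.19 and the share of higher genes among the calls from 52.5% to 72.1%, while the medians of these lists kept their sign, and of their called genes Trim28 alone changed direction.

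**Figure D3:**
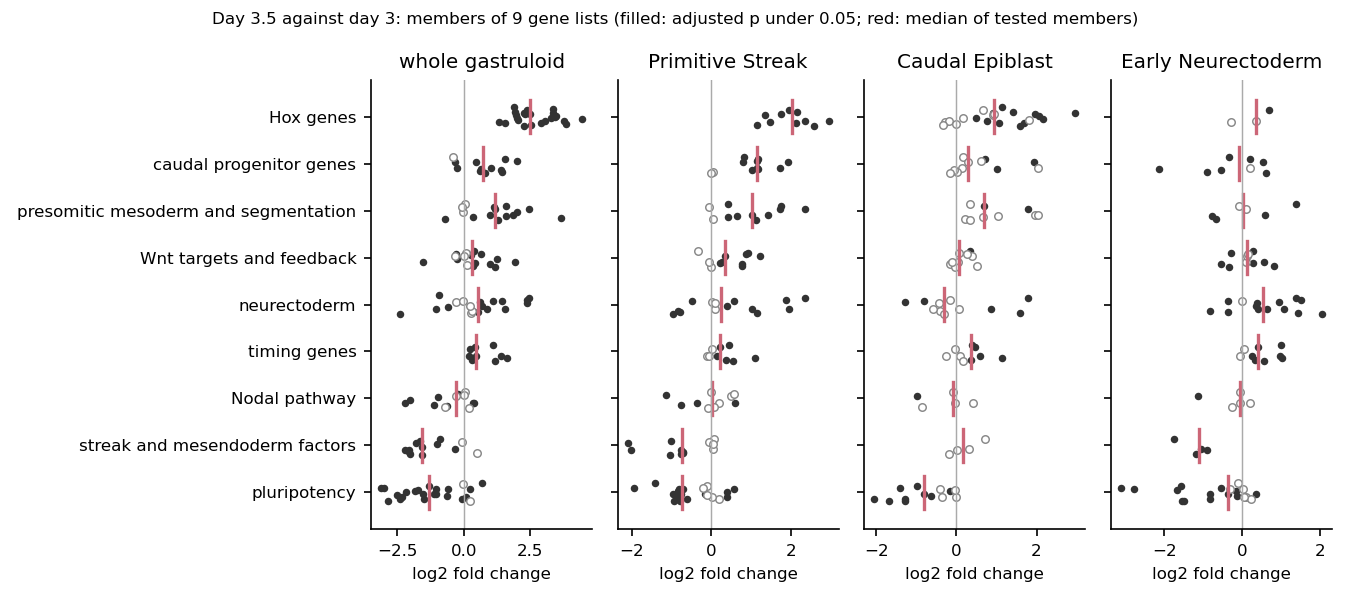
Log2 fold change of day 3.5 against day 3 (horizontal axis) for each tested member of 9 gene lists, in the whole gastruloid and in 3 clusters; filled points passed an adjusted p of 0.05 and red bars are medians. Hox genes lie to the right in the first 3 panels (medians 2.48, 2.04 and 0.93) and pluripotency genes to the left in all 4.

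The tested Hox genes moved in 1 direction, as did the timing genes described below, and by a larger median change. Of the 39 Hox genes in the data, 23 passed the filter on low counts and 23 rose at 2-fold or more, with a median log2 change of 2.48. A gene can pass that filter through day 3.5 alone, so the count describes the tested members and not the 16 others. Hoxc8, which acts in the trunk, had 0 to 7.19 CPM (UMI counts normalised to the effective library size) at day 3, with a median of 1.75, and 11.2 to 144 CPM at day 3.5, with a median of 45.7. Its log2 change was 4.45 ± 0.33 (SE; edgeR adjusted p = 1e-15), the largest of the family, and the groups did not overlap. Hoxb9, the last gene of the trunk part of the Hoxb cluster, went from a range of 1.99 to 40.2 CPM (median 10.7) to 22.2 to 216 CPM (median 95.3), a log2 change of 3.28 ± 0.27 (edgeR adjusted p = 1.45e-14). Here 1 or more gastruloids of day 3 reached into the range of day 3.5, though all 16 of day 3.5 were above the day 3 median.

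Hoxb1, the first gene of its cluster, changed by 1.54 ± 0.29 on the log2 scale (edgeR adjusted p = 7.45e-06). It was already present at day 3, with a median of 17.6 CPM. Hoxb4 rose from 2.39 to 11.7 CPM (median 5.31) to 18.2 to 50.7 CPM (median 32.3), and Hoxd4 from 0.325 to 2.79 CPM (median 1.69) to 2.67 to 30.5 CPM (median 18.3). The groups were apart for Hoxb4 and met at the edges for Hoxd4. In 10 of the 23 genes the groups did not overlap, against 13% of all genes tested. The antisense RNA Hoxaas3 (chromosome 6, 52175217 to 52215076, plus strand, GRCm38) rose with them, from a median of 9.73 to 160 CPM, and Hoxb3os (chromosome 11, 96343072 to 96354691, minus strand) from 2.99 to 23.7 CPM. Both overlap Hox genes of the opposite strand. No label or header gives the strand setting of the counting, and the part of reads from the overlapped genes in these levels was not tested.

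The promoters of 3 of these genes are shown because they hold short motifs of signals that act on Hox genes in the embryo. They run from 250 bases before to 50 after the start that RefSeq gives (GRCm38.p6). For Hoxd4 this window lies inside the gene as placed by the annotation that gave the gene positions here (chromosome 2, 74711929 to 74729160). The capitals mark the retinoic acid receptor half-site AGGTCA, written TGACCT on the other strand, or the CDX-type motif TTTATG, written CATAAA on the other strand.
Hoxb4, chr11:96318017-96318316, plus strand: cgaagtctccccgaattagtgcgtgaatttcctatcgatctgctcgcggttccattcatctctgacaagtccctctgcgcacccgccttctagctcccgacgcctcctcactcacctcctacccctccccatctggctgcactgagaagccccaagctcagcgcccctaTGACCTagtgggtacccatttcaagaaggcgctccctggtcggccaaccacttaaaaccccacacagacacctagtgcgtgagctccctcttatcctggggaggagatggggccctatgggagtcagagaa
Hoxd4, chr2:74721728-74722027, plus strand: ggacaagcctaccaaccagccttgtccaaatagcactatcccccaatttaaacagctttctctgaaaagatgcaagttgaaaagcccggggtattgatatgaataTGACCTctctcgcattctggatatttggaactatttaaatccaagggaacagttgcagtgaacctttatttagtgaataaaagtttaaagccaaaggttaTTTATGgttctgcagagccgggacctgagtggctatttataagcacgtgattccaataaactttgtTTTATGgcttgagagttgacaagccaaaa
Hoxb8, chr11:96281655-96281954, plus strand: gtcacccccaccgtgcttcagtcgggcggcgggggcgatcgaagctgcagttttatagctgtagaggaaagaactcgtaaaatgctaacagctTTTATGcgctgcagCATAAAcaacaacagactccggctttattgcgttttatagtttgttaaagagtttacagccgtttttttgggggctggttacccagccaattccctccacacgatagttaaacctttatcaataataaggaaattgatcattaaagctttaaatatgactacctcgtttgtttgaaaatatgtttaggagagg
RefSeq gave a promoter for 11 of the 23 tested Hox genes. AGGTCA, on either strand, was found in 4 of them (Hoxa5, Hoxb4, Hoxc4 and Hoxd4) and in 16.3% of all 32851 promoters of the same length. TTTATG was found in 3 of them (Hoxa7, Hoxb8 and Hoxd4) and in 11.9% of all promoters. The 3 genes were picked after 9 motifs had been searched, and a match is a description of the letters only.

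Genes of the retinoic acid pathway, the vitamin A derived signal of somites and hindbrain, rose in 5 of 9 tested members and fell in 0. Over all genes 39.3% rose and 35.6% fell. The clusters differed: in Primitive Streak 6 of 7 rose and 0 fell, in Caudal Epiblast 1 of 4 rose and 0 fell. In Early Neurectoderm 0 of 5 rose and 3 fell. Aldh1a2, the enzyme that makes retinoic acid in the early embryo, had the largest rise among the genes named by rule for the whole gastruloid. It was at 0.180 to 16.5 CPM at day 3 (median 1.21) and at 5.05 to 453 CPM at day 3.5 (median 48.2), a log2 change of 5.82 ± 0.54 (edgeR adjusted p = 6.37e-13). The wide range at day 3.5 overlapped that of day 3 at its low end, though all 16 gastruloids were above the day 3 median. Little of the Aldh1a2 was in the 3 shared clusters: over pooled cells of day 3.5 the level was 163 CPM in all cells against 8.56 in Primitive Streak, 7.66 in Caudal Epiblast and 3.71 in Early Neurectoderm. Crabp1 (2.12 ± 0.35) and Crabp2 (0.28 ± 0.09), which bind retinoic acid in the cell, and Stra6 (1.98 ± 0.20), a receptor for the carrier of vitamin A, rose too. Cyp26a1, which breaks retinoic acid down, had a log2 change of -0.40 and did not pass (edgeR adjusted p = 0.473).

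Wnt signalling, the pathway that CHIR99021 activates, gave a mixed picture. Of 16 tested targets and feedback genes 9 rose, 3 fell and 4 did not pass, with a median log2 change of 0.32. Nkd1, a feedback inhibitor, had 17.7 to 31.3 CPM at day 3 (median 21.4) and 34.3 to 66.0 CPM at day 3.5 (median 51.2). This is a log2 change of 1.16 ± 0.07 (edgeR adjusted p = 5.81e-19), and the groups did not overlap. Tnfrsf19 likewise separated the days, with 13 to 23.5 against 27.6 to 56.5 CPM and a change of 1.26 ± 0.08 (edgeR adjusted p = 1.62e-18). Lef1, a transcription factor of the pathway, rose by 0.98 ± 0.09 and the widely used readout Axin2 by 0.39 ± 0.07. Sp5, a direct target, had a log2 change of 0.13 ± 0.10 in the whole gastruloid (edgeR adjusted p = 0.224), with medians of 120 and 148 CPM, and passed with library size alone (0.29, edgeR adjusted p = 0.00424). Ascl2 (-1.52), Tcf7 (-0.29) and Sp8 (-0.26) were the 3 that fell, Sp8 not with library size alone (edgeR adjusted p = 0.221).

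Among Wnt ligands and receptors 9 of 16 rose and 3 fell. Wnt3, the ligand of the early streak, fell from a median of 19.4 to 5.64 CPM (log2 change -1.57 ± 0.15, edgeR adjusted p = 8.03e-13), with all 16 gastruloids of day 3.5 below the day 3 median. Wnt3a, the ligand of the later caudal streak, rose from 10.2 to 13.1 CPM (0.46 ± 0.17, edgeR adjusted p = 0.0108), with 12 of 16 above the day 3 median. Wnt5a, which signals mainly outside the beta-catenin branch, rose by 1.0 ± 0.11, and Rspo3, an amplifier of Wnt signals, by 1.06 ± 0.19. The inhibitor Sfrp1 rose by 1.54 ± 0.17. Rspo1 and Wnt11 fell, the latter from a median of 1.53 to 0.364 CPM.

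In the Nodal pathway 2 of 13 tested genes were higher and 6 lower in whole gastruloids, a share of falls not far from the 35.6% of all genes, with a median log2 change of -0.30 against 0.03. Within Primitive Streak 1 of 10 rose and 3 fell, with a median of 0.02 against 0.03 for all genes, and with library size alone 5 rose and 2 fell. Nodal itself, the ligand, had 11.7 to 35.4 CPM at day 3 (median 26.7) and 0.830 to 11.3 CPM at day 3.5 (median 4.53). The log2 change was -2.19 ± 0.20 (edgeR adjusted p = 9.05e-13) and the ranges did not meet. Its coreceptor Tdgf1 fell by 2.01 ± 0.40 (edgeR adjusted p = 1.95e-05), with medians of 105 and 13 CPM and overlapping ranges. Lefty1, an inhibitor that Nodal induces, fell by 1.11 ± 0.30 and Smad7 by 0.61 ± 0.13, while the receptors Acvr2a (0.39 ± 0.06) and Acvr1b (0.36 ± 0.06) rose. Pmepa1, a target of this branch of the TGF-beta family, fell from a median of 41.2 to 8.76 CPM without overlap.

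The factors of the streak and of mesendoderm fell in 11 of 13 cases, and the other 2, Snai1 and Tbx3, did not pass, though Tbx3 rose with library size alone (edgeR adjusted p = 0.0416). Eomes, which drives endoderm and anterior mesoderm, went from 11.6 to 103 CPM (median 35.2) to 0.276 to 40.7 CPM (median 1.86), a log2 change of -2.04 ± 0.40 (edgeR adjusted p = 1.49e-05). Mesp1, the factor of the first mesoderm, went from a median of 58.8 to 4.78 CPM and Foxa2, a factor of endoderm and axial mesoderm, from 18.9 to 4.11 CPM. Goosecoid (Gsc) fell by 1.80 ± 0.30 and Mixl1 by 1.58 ± 0.31. T itself had 317 to 575 CPM at day 3 (median 490) and 61.1 to 421 CPM at day 3.5 (median 230), a change of -1.0 ± 0.14 (edgeR adjusted p = 4.57e-08). For each of these 6 the ranges of the days overlapped. Fgf8, Wnt3 and Nodal are members of this list too. The summed level of 10 endoderm markers, which include Foxa2, ran from 62.4 to 805 CPM at day 3 (median 103) and from 24.9 to 333 at day 3.5 (median 44.3), with 6 of 10 lower, and its part in these falls was not tested.

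Pluripotency genes fell in 18 of 23 tested cases and rose in 3. Pou5f1 (Oct4) was at 499 to 878 CPM at day 3 (median 745) and at 124 to 419 CPM at day 3.5 (median 257). The log2 change was -1.54 ± 0.11 (edgeR adjusted p = 5.52e-16) with no overlap. Nanog fell from a median of 18.9 to 5.27 CPM (-1.83 ± 0.14), also without overlap. The steepest falls among the named genes were those of Fgf5, a growth factor of the primed epiblast, from 37.1 to 144 CPM (median 84.8) to 2.17 to 25.0 CPM (median 7.36), and of Dppa5a, from a median of 77.7 to 9.23 CPM. Their log2 changes were -3.10 ± 0.22 and -2.85 ± 0.22 (edgeR adjusted p of 1.71e-16 and 1.79e-15). L1td1 (-2.31), an RNA-binding protein of pluripotent cells, and Utf1 (-2.52) also had no overlap. Sox2, which neural and caudal progenitors keep, was 1 of the 3 that rose, by 0.69 ± 0.22 (edgeR adjusted p = 0.00412), with 11 of 16 gastruloids above the day 3 median.

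**Figure D4:**
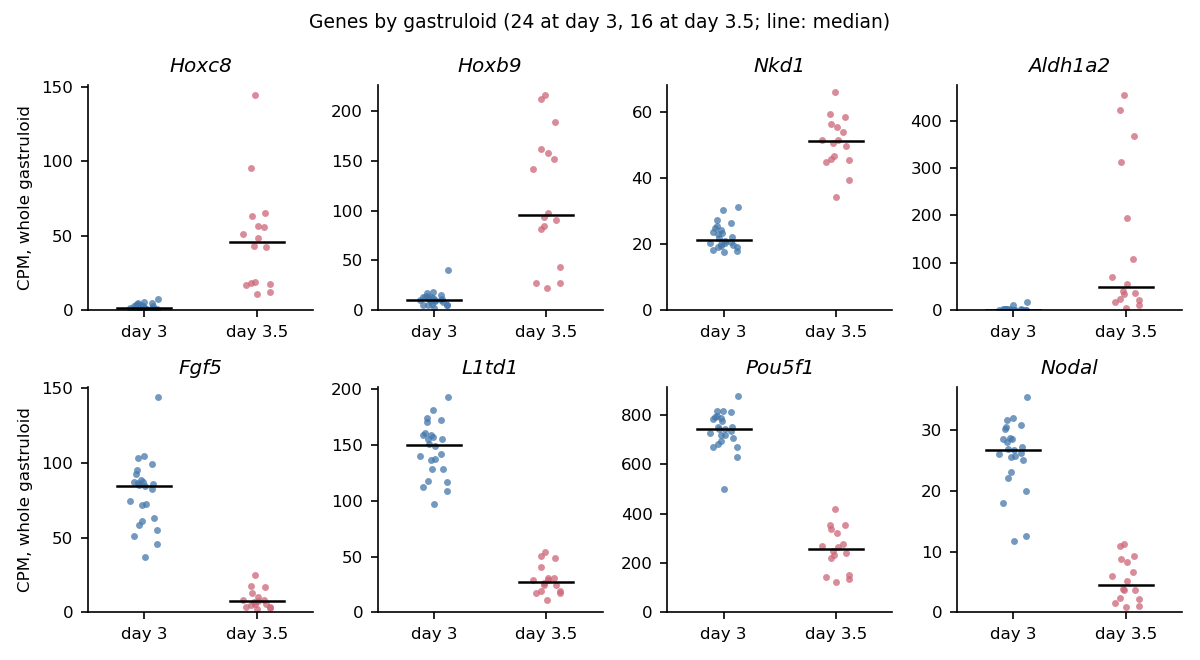
Level of 8 genes in whole gastruloids (CPM, vertical axis, starting at 0), 1 point per gastruloid with the median as a line. Hoxc8, Hoxb9, Nkd1 and Aldh1a2 (top row) are higher at day 3.5 and Fgf5, L1td1, Pou5f1 and Nodal (bottom row) lower; the groups overlap for Hoxb9 and Aldh1a2 and are apart for the other 6.

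Caudal progenitor genes rose in 9 of 12 tested cases and fell in 2. Cdx2, which holds cells in the caudal state, had 63.0 to 204 CPM at day 3 (median 110) and 90.4 to 331 CPM at day 3.5 (median 267), a change of 1.03 ± 0.14 (edgeR adjusted p = 2.94e-08). Nkx1-2, a marker of the progenitors of spinal cord and trunk mesoderm, rose by 0.81 ± 0.18, and the ligand Fgf17 by 1.56 ± 0.17. The groups overlapped for each of them. In the FGF list, 6 of 17 genes rose, among them Fgf4 (1.56 ± 0.28), and 5 fell, both near the shares over all genes of 39.3% higher and 35.6% lower. Fgf8, the main FGF ligand of the streak, fell by 0.88 ± 0.14 (edgeR adjusted p = 1.78e-07), from a median of 326 to 156 CPM, with all 16 below the day 3 median.

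Of the genes of presomitic mesoderm and segmentation, 11 of 15 rose and 1 fell. Tbx6, which specifies presomitic mesoderm, went from 4.23 to 32.3 CPM (median 7.61) to 2.11 to 120 CPM (median 25.2), a change of 2.02 ± 0.36 (edgeR adjusted p = 2.68e-06). The Notch ligand Dll1 rose by 1.87 ± 0.30 and the clock gene Hes7 by 1.6 ± 0.18. Pcdh19, a cell adhesion gene of forming somites, changed most, by 3.67 ± 0.45, with medians of 2.60 and 14.7 CPM and a highest value of 157 CPM. Each had gastruloids of day 3.5 inside the day 3 range. Hes1 was the single member that fell.

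Neurectoderm genes rose in 10 of 19 tested cases and fell in 4, where 39.3% of all genes rose and 35.6% fell. Ncam1, a neural adhesion molecule, separated the days, with 12.1 to 31.6 CPM (median 19) against 49.8 to 175 CPM (median 96.5) and a change of 2.36 ± 0.14 (edgeR adjusted p = 6.82e-19). Its rise was not limited to neural clusters: within Caudal Epiblast it had 17.1 to 50.9 CPM at day 3 and 86.7 to 139 CPM at day 3.5. Sox1, the first marker of committed neural cells, rose by 2.38 ± 0.43 with overlap, from a median of 1.69 to 12 CPM. The anterior gene Otx2 was among those that fell, by 2.40 ± 0.33, from a median of 15.0 to 1.25 CPM. Summed over 10 spinal cord and neuron markers, the level was 153 to 324 CPM at day 3 (median 206) and 124 to 483 at day 3.5 (median 299), with 2 of 4 tested markers higher. The part of such cells in the rises of Ncam1 and Sox1 was not tested.

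Genes that mark developmental time rose as a whole list, 9 of 9. Nr6a1, which controls the trunk phase of axis growth, had 38.7 to 56.9 CPM at day 3 (median 47.9) and 88.1 to 189 CPM at day 3.5 (median 151). Its log2 change of 1.61 ± 0.07 came with an edgeR adjusted p of 1.73e-24 and no overlap. Hmga2 rose by 1.40 ± 0.15, Prtg by 1.18 ± 0.07 and Igf2bp2 by 1.11 ± 0.07. In the adhesion list Epcam fell from a median of 349 to 101 CPM (-1.72 ± 0.07) and the tight junction gene Cldn7 from 38.3 to 5.31 CPM (-2.65 ± 0.16), both without overlap. Cdh1 (E-cadherin) fell by 0.68 ± 0.08 in whole gastruloids, though not within Primitive Streak or Caudal Epiblast, where it rose. Cdh2 (N-cadherin) rose by 0.87 ± 0.12 and Zeb1, a repressor of E-cadherin, by 1.05 ± 0.07.

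Further genes of the whole gastruloid were named by the size of their change alone. Tmem132c rose from a median of 2.22 to 27.4 CPM and Greb1l from 3.55 to 33.8 CPM, both without overlap. Meis2, a cofactor of Hox proteins, rose from 7.42 to 37.8 CPM, and Ptgds and Dact1 rose by 2.52 ± 0.36 and 2.41 ± 0.31. Cldn6, another tight junction gene, fell from 23.6 to 3.98 CPM. The groups overlapped for Meis2, Ptgds, Dact1 and Cldn6.

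Within cells named Primitive Streak the comparison had 24 gastruloids of day 3 and 13 of day 3.5 with at least 20 such cells. Of the posterior genes that could be tested here, all 10 Hox genes and 9 of 11 caudal progenitor genes rose, whereas T itself did not pass. In the clusters too a gene can pass the filter on low counts through day 3.5 alone. The Hox counts within clusters thus describe the tested members only, here 10 of 39. Pluripotency genes fell in 14 of 22 cases and streak and mesendoderm factors in 8 of 12. Of 10318 genes tested 60.4% passed, 31.7% higher and 28.6% lower (2.01% and 0.717% at 2-fold or more), and under scaling by library size alone 75% of the calls were higher in place of 52.5%. Clusters were named from expression, so these comparisons are conditional on the naming.

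T had 558 to 717 CPM in Primitive Streak at day 3 (median 645) and 504 to 901 CPM at day 3.5 (median 673). The log2 change of 0.05 ± 0.04 did not pass (edgeR adjusted p = 0.279). Fgf8, at medians of 379 and 403 CPM, did not pass either (0.08 ± 0.06, edgeR adjusted p = 0.232). Both depended on the scaling: with library size alone T rose by 0.20 and Fgf8 by 0.23 (edgeR adjusted p of 3.73e-05 and 0.000378). By contrast Eomes went from 5.46 to 28.0 CPM (median 21.1) to 0 to 13.7 CPM (median 3.77) and Gsc from a median of 20.5 to 4.54 CPM, with log2 changes of -2.01 ± 0.21 and -2.10 ± 0.23 (edgeR adjusted p of 5.39e-12 and 7.13e-12). Mixl1 fell by 1.03 ± 0.15, Tdgf1 by 1.14 ± 0.21 and Nodal by 0.75 ± 0.15. In all 5 the ranges overlapped. Pou5f1 fell from 750 to 884 CPM (median 795) to 387 to 513 CPM (median 445) without overlap (-0.81 ± 0.03, edgeR adjusted p = 3.14e-31), and Fgf5 from a median of 92.7 to 22.3 CPM. Both cadherins rose in Primitive Streak: Cdh1 from a median of 66.2 to 94.9 CPM (0.54 ± 0.07, edgeR adjusted p = 2.12e-10), with overlap, and Cdh2 from 57.0 to 121 CPM (1.03 ± 0.07, edgeR adjusted p = 1.58e-18), without.

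Hoxb8 rose in Primitive Streak from 0.966 to 17.2 CPM (median 7.76) to 26.6 to 72.4 CPM (median 52.8), a change of 2.59 ± 0.15 (edgeR adjusted p = 7.93e-22), and Hoxb9 by 2.95 ± 0.17. The groups did not overlap for either. Hoxaas3 led the named genes with 3.54 ± 0.20, from a median of 4.24 to 68.4 CPM. Cdx1 (1.18 ± 0.10), Cdx2 (1.14 ± 0.06), Nkx1-2 (1.03 ± 0.07) and Fgf17 (1.92 ± 0.13) rose together with the presomitic genes Tbx6 (1.73 ± 0.17), Dll1 (1.43 ± 0.13) and Hes7 (1.75 ± 0.12). Hes7 was at 15.9 to 56.7 CPM at day 3 and at 69.7 to 203 CPM at day 3.5, with no overlap. Fgf4 went from a median of 0.768 to 7.83 CPM.

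Wnt targets rose in 8 of 11 tested cases in Primitive Streak and fell in 0. Nkd1 went from 11 to 24.8 CPM (median 17.5) to 29.7 to 50.3 CPM (median 43.6), a change of 1.22 ± 0.07 (edgeR adjusted p = 2.44e-21) without overlap. Sp5, which did not pass in whole gastruloids, rose by 0.76 ± 0.07 (edgeR adjusted p = 1.98e-14), Lef1 by 0.77 ± 0.04, Notum by 0.92 ± 0.12 and Axin2 by 0.22 ± 0.07. Of the ligands Wnt3a rose by 1.14 ± 0.10, Wnt5a by 1.49 ± 0.10 and Rspo3 by 1.40 ± 0.07, and Wnt3 fell by 0.71 ± 0.14. Among BMP genes 5 of 9 rose, with the targets Id1 (1.2 ± 0.15), Id3 (0.99 ± 0.10) and Msx1 (2.17 ± 0.20), and 1 fell.

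The other genes named by size in Primitive Streak were the fatty acid transporter Cd36 (2.54 ± 0.18), Limch1 (2.35 ± 0.08), the imprinted Peg10 (2.28 ± 0.09), Sfrp1 (2.24 ± 0.14), Defa30 (2.15 ± 0.09) and Cpxm2 (2.04 ± 0.12) among those that rose. Pkdcc (-1.96 ± 0.14), the cytokine signalling inhibitor Socs2 (-1.62 ± 0.10), Gng3 (-1.35 ± 0.09), Cldn7 (-1.26 ± 0.12) and the neurofilament gene Nefl (-1.25 ± 0.14) fell. Pkdcc had 33.9 to 56.1 CPM at day 3 and 2.98 to 21.5 CPM at day 3.5, without overlap. Defa30, a member of the family of alpha-defensins with many close copies, had 35 to 96.5 CPM (median 67.5) against 187 to 404 CPM (median 327). In the single 10X library of day 3, a separate experiment, Primitive Streak cells were at 11 CPM of Defa30 (exact Poisson 95% interval 9.71 to 12.4), below the pooled 66.9 and 324 CPM of the 2 days. The counts of that library do not equal those in the authors' table, as described last. Aldh1a2 rose as well (3.51 ± 0.24), from a median of 0.627 to 6.73 CPM. The suspension of day 3.5 also held day 4 cells, with 378 CPM of Aldh1a2 over all cells, and the part of free RNA in this low level was not tested.

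Early Neurectoderm could be compared in 16 gastruloids of day 3 and 6 of day 3.5. Neural genes rose in 10 of 14 cases and fell in 3, and pluripotency genes fell in 12 of 19. Unlike in Primitive Streak, T and Cdx1 fell, and of the 3 tested Hox genes 1 rose. Of 8378 genes tested 43.5% passed, 22% higher and 21.5% lower (0.466% and 0.919% at 2-fold or more), and 76.3% of the calls were higher with scaling by library size alone. Without lane A or lane B of day 3, which leaves fewer gastruloids with 20 cells, the number of calls fell from 3641 to 2272 or 2271.

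Sox1 had 2.38 to 15.4 CPM in Early Neurectoderm at day 3 (median 6.28) and 18 to 51.8 CPM at day 3.5 (median 27.4). The change was 2.04 ± 0.18 (edgeR adjusted p = 2.88e-15) with no overlap. Meis2 rose by 2.15 ± 0.18, Ncam1 by 1.51 ± 0.10 and the radial glia gene Fabp7 by 1.61 ± 0.15. N-cadherin (Cdh2) went from a median of 54.7 to 121 CPM and Epcam from 369 to 138 CPM, each without overlap (1.07 ± 0.08 and -1.49 ± 0.07; edgeR adjusted p of 9.52e-19 and 4.47e-29), and E-cadherin (Cdh1) fell by 0.64 ± 0.12 (edgeR adjusted p = 1.74e-05). Irx3 (1.43 ± 0.22) and Hes5 (1.38 ± 0.23) rose. Sox2 fell slightly, by 0.36 ± 0.12 (edgeR adjusted p = 0.0163; 0.145 with library size alone), and Sox3 rose by 0.37 ± 0.10. Timing genes rose in 7 of 9 cases, with Nr6a1 (1.01 ± 0.07) and Hmga2 (0.97 ± 0.08) both free of overlap.

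T in Early Neurectoderm fell from 71.5 to 152 CPM (median 94.8) to 15.0 to 48.7 CPM (median 30.8). This change of -1.76 ± 0.14 (edgeR adjusted p = 3.53e-17) left no overlap. Cdx1 fell from a median of 8.03 to 1.63 CPM, Fgf8 from 34.3 to 16.1 CPM, Wnt3 from 11.5 to 4.65 CPM and Crabp2 from 45.2 to 17.8 CPM. Utf1 and Tdh, an enzyme that breaks down threonine in pluripotent mouse cells, had the largest falls, of -3.12 ± 0.26 and -2.79 ± 0.32 (edgeR adjusted p of 2.14e-16 and 2.48e-11). Epp13, Acer2, the imprinted Phlda2, Gng3 and L1td1 followed, between -2.62 and -1.54. Among Wnt targets 4 of 10 rose, Nkd1 by 0.80 ± 0.09, and 3 fell, Sp5 by 0.30 ± 0.12, Tcf7 and Sp8. With library size alone 5 rose and 1 fell, and Sp5 and Tcf7 did not pass (edgeR adjusted p of 0.232 and 0.105). Eml1, Peg10 and the histone genes Hist1h3b and Hist1h1e completed the named rises, between 1.27 and 1.44. All 6 gastruloids of day 3.5 with enough Early Neurectoderm come from the 10 with under 30% Early Posterior PSM.

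Caudal Epiblast had too few cells at day 3: in 0 of 24 gastruloids were there 20 of them. The comparison was therefore made with a minimum of 10 cells, in 6 gastruloids of day 3 and 15 of day 3.5. Hox genes rose in 12 of 21 cases and fell in 0, pluripotency genes fell in 9 of 13, and most caudal progenitor genes did not pass, with 3 of 11 higher. Of 8316 genes 18.2% passed, 7.92% higher and 10.3% lower (1.56% and 0.493% at 2-fold or more), and 67.5% of the calls were higher with scaling by library size alone.

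Hoxc8 went in Caudal Epiblast from 2.38 to 18.9 CPM (median 12.1) to 14.2 to 158 CPM (median 72.3), a change of 2.97 ± 0.50 (edgeR adjusted p = 6.04e-05). Hoxb6 rose by 2.06 ± 0.40 and Hoxb9 by 0.92 ± 0.18, the latter from 76.0 to 118 CPM to 133 to 325 CPM without overlap. Hoxb8 did not pass, with medians of 193 and 213 CPM (0.17 ± 0.10, edgeR adjusted p = 0.239). Cdx2 (medians 351 and 379 CPM), Nkx1-2 (211 and 222 CPM) and T (521 and 433 CPM) did not pass either, though Cdx2 did with library size alone (0.23, edgeR adjusted p = 0.00677), whereas Cdx1 (1.01 ± 0.28) and Fgf17 (1.93 ± 0.51) rose. Pou5f1 fell from 601 to 960 CPM (median 703) to 195 to 418 CPM (median 291), a change of -1.29 ± 0.13 (edgeR adjusted p = 9.75e-09) without overlap. Among Wnt targets Lef1 was the 1 of 10 that rose. Cdh2 rose by 0.86 ± 0.16 (edgeR adjusted p = 0.000169) and Cdh1 by 0.58 ± 0.21 (edgeR adjusted p = 0.0487). The Cdh1 call was lost without lane C (0.0685) or D (0.0736) of the day 3.5 pool and without mitochondrial and ribosomal protein genes (0.0514).

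Further genes named by size in Caudal Epiblast were Sprr2a3 (3.59 ± 0.97), Kif26b (3.23 ± 0.76), Hoxaas3, Hoxb3os and the planar polarity gene Celsr1 (1.77 ± 0.35) among those that rose. Kif26b had 0 to 5.87 CPM at day 3 and 7.69 to 51.8 CPM at day 3.5. L1td1 (-1.68 ± 0.22), the apelin receptor ligand Apela (-1.62 ± 0.24), the kinase Pim2 (-1.40 ± 0.38), the creatine kinase Ckb (-1.35 ± 0.18), Acer2 (-1.30 ± 0.23), Gng3 (-1.28 ± 0.27) and Pou3f1 (-1.27 ± 0.25) fell. The 6 sums of day 3 come from 10 to 18 cells each, which limits the precision of their low values.

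Whether the day effect differed between clusters was tested in the gastruloids that had enough cells of both. Early Neurectoderm and Primitive Streak, in 16 gastruloids of day 3 and 4 of day 3.5, differed in 777 of 10327 genes, 7.52% (edgeR interaction test with the gastruloid as a block), with a higher effect in Early Neurectoderm in 3.76% and a lower one in 3.77%. For Cdx1 the day effect was 2.72 ± 0.36 lower in Early Neurectoderm (a difference of -2.72 in log2, edgeR adjusted p = 1.28e-08), with means of 17.9 and 33.2 CPM in Primitive Streak and of 8.28 and 2.50 CPM in Early Neurectoderm. T differed by -1.61 ± 0.14 (edgeR adjusted p = 6.54e-16), Fgf8 by -1.18 ± 0.15, Hes7 by -2.57 ± 0.27, Hoxb8 by -2.18 ± 0.25 and Crabp2 by -2.19 ± 0.17. Without lane D of the day 3.5 pool the difference was -1.07 for T (edgeR adjusted p = 7.26e-06) and -1.80 for Cdx1 (edgeR adjusted p = 0.00416). Crabp2 rose in 1 cluster and fell in the other. Pou5f1, at -0.11 ± 0.06, did not pass (edgeR adjusted p = 0.330).

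The genes with the largest differences also included Defa30 (-3.67 ± 0.40, and -5.57 without lane C of the day 3.5 pool) and Kitl (-2.28 ± 0.35), a ligand of the receptor Kit. Mthfd2 (1.29 ± 0.14), an enzyme of mitochondrial folate metabolism, and Hmga2 (1.05 ± 0.12) had the more positive effect in Early Neurectoderm. Hmga2 had means of 48.6 and 47.0 CPM in Primitive Streak and of 69.1 and 145 CPM in Early Neurectoderm. Pkdcc (1.6 ± 0.32), Nrcam (1.33 ± 0.26) and Nefl (1.04 ± 0.28) passed here but not in each of 12 alternatives. Pkdcc (0.865 to 1.84) and Nrcam (0.848 to 1.44) passed in 9 of them and were lost without lane B, C or D of the day 3.5 pool. Nefl (0.42 to 1.53) passed in 8 and was lost without lane B of day 3 or lane A, C or D of the other pool, with edgeR adjusted p of up to 0.61. The count of 777 moved to between 260 and 621 when 1 lane was left out, lowest without lane B of day 3, and to 425, 415, 305 and 306 without lane A of day 3 and lanes B, C and D of the other pool.

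**Figure D5:**
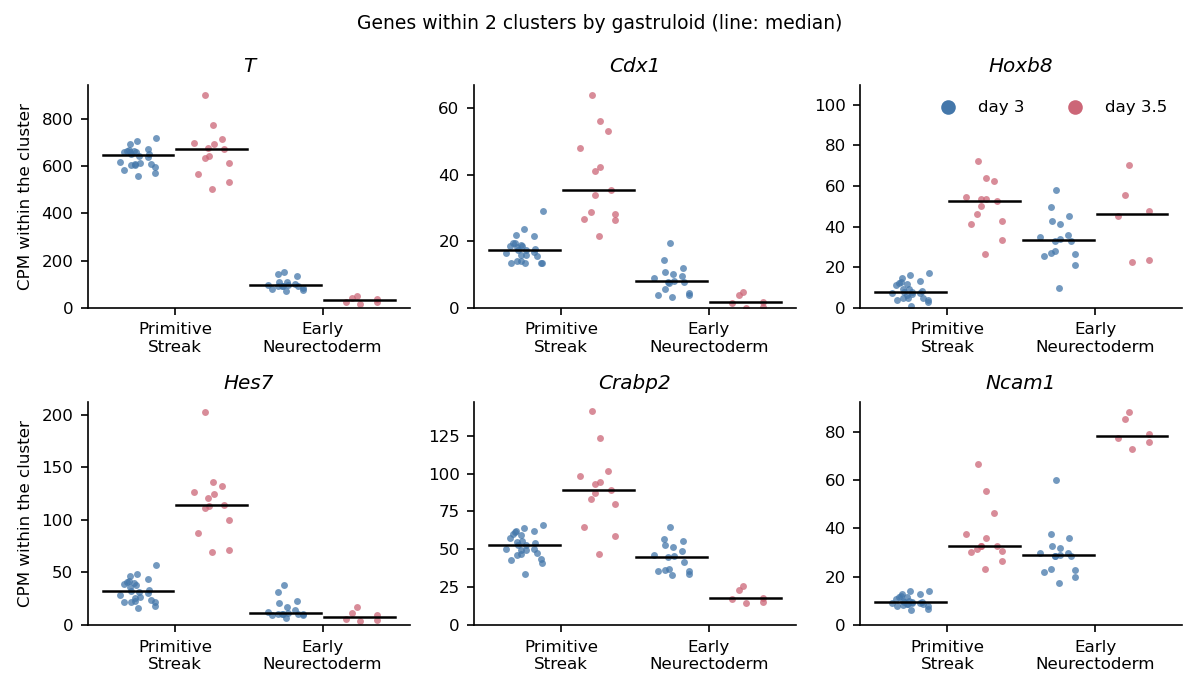
Level of 6 genes (CPM within the cluster, vertical axis, starting at 0) in Primitive Streak (24 gastruloids of day 3, 13 of day 3.5) and Early Neurectoderm (16 and 6); points are gastruloids, lines medians. T, Cdx1, Hes7 and Crabp2 fall in Early Neurectoderm (Hes7 not with library size alone, edgeR adjusted p = 0.0575), where Ncam1 rises; in Primitive Streak Cdx1, Hoxb8, Hes7, Crabp2 and Ncam1 rise and T does not pass (it rises with library size alone).

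Between Caudal Epiblast and Primitive Streak, in 6 and 15 gastruloids with at least 10 cells of both, the day effect differed in 311 of 9899 genes, 3.14%, with 1.66% higher in Caudal Epiblast and 1.48% lower. Hoxb8 had means of 10.4 and 53.4 CPM in Primitive Streak and of 191 and 215 CPM in Caudal Epiblast, a difference of -2.16 ± 0.20 (edgeR adjusted p = 1.82e-10). Hoxb7 (-1.85 ± 0.26), Gbx2 (-1.97 ± 0.21) and Sfrp1 (-2.17 ± 0.30) followed the same pattern, with a rise in Primitive Streak towards the level that Caudal Epiblast had on both days. Apela (-2.11 ± 0.23) went from 77.9 to 26.6 CPM in Caudal Epiblast and from 22.9 to 35.6 CPM in Primitive Streak. The positive differences were those of Mixl1 (1.77 ± 0.51), Uap1l1 (1.48 ± 0.33), Grina (1.01 ± 0.25), the asparagine synthetase gene Asns (1.01 ± 0.13) and fibronectin, Fn1 (0.98 ± 0.25). Mixl1 (edgeR adjusted p = 0.0425) passed in 6 of 9 alternatives and was lost without lane D of the day 3.5 pool (0.0990), with library size alone (0.0580) and without mitochondrial and ribosomal protein genes (0.0554). Cdx1 and T did not pass (edgeR adjusted p of 0.921 and 0.261). Without lane A of the day 3.5 pool 207 genes passed.

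Day 4 gastruloids, which shared pool and lanes with day 3.5, give the next step of each gene in 1 pool. In that comparison, of UMIs summed over whole gastruloids, 60.4% of 13262 genes passed (edgeR), 31.1% higher and 29.2% lower at day 4. It shares the day 3.5 gastruloids with the first comparison, so the values stand side by side without a test between them. Caudal progenitor genes, 9 of 12 of which rose from day 3 to day 3.5, fell in 9 of 13 cases from day 3.5 to day 4 and rose in 0. Cdx1 changed by 0.64 and then by -2.44, Nkx1-2 by 0.81 and -2.21, Cdx2 by 1.03 and -1.49 and Wnt3a by 0.46 and -1.22. The 8 Caudal Epiblast markers, which include these genes, had summed medians of 848 CPM at day 3.5 and 256 at day 4 in whole gastruloids. Within Caudal Epiblast the medians were 1265 and 1232 CPM. That cluster held 777 of 4679 cells at day 3.5 and 675 of 13750 at day 4, and its part in the falls was not tested. Wnt targets rose in 9 of 16 cases and then fell in 9 of 17, among them Nkd1 (1.16, then -0.76), Notum (0.64, then -1.88) and Axin2 (0.39, then -0.35).

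Hox genes rose in 6 of 26 cases and fell in 4 from day 3.5 to day 4. Hoxb9 changed by 3.28 and then by -1.08 and Hoxb8 by 2.27 and -1.03, while Hoxc8 (-0.33) did not pass in the second step. Pou5f1 fell in both steps, by 1.54 and by 2.62, and so did T, by 1.0 and by 1.46. Aldh1a2 (5.82, then 1.36), Pcdh19 (3.67, then 1.48) and Hmga2 (1.40, then 1.70) rose in both. Fgf5 and Nodal fell from day 3 and had changes of 0.38 and -0.01 in the second step that did not pass, and Cldn7 fell by 2.65 and then rose by 1.83.

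A library of day 3 from the 10X experiment, 1 sample of 3058 cells, gives a second view of that day without a replicate check. Its median cell had 16459.5 UMIs. In 0 of its 3058 cells did the UMI count of the deposited matrix equal that in the authors' table. In the MULTI-seq lanes of day 3 and of the day 3.5 pool the 2 were equal in all cells. The part of this mismatch in the levels of the library given here was not tested, and the intervals do not cover it. Primitive Streak was 44.0% of its cells (exact Clopper-Pearson 95% interval 42.3% to 45.8%) and Early Posterior PSM 20.3%. The first share lies inside the range of the day 3 gastruloids of the third experiment and the second above the highest of them, 16.0%, with no test of either. All 12 genes named by rule for their fall lay nearer to the day 3 pool than to day 3.5 on the log scale. Of the 12 named for their rise 5 did, and Aldh1a2, Dact1, Hoxb3os, Hoxb4, Meis2, Pcdh19 and Ptgds lay nearer to day 3.5. Aldh1a2, for example, had 36.1 CPM (exact Poisson 95% interval 34.5 to 37.7, counting error only) against pooled levels of 2.33 at day 3 and 163 at day 3.5, and Hoxc8 had 3.54 CPM (3.06 to 4.08) against 2.10 and 55.8.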

How the data were processed

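UMI counts from 10x 3' v3.1 libraries were deposited by the authors as 1 matrix per lane, unnormalized, made with Cell Ranger 6.0.0 on mm10 per the submitters' processing notes. Gastruloid, day, cluster name and mapped stage come from the authors' deposited cell table, for which no label gives the cell filters or any doublet treatment beyond the barcode calls. Cells called negative or doublet were left out. UMIs were summed per gastruloid (minimum 30 cells) and per gastruloid and cluster (minimum 20; Caudal Epiblast 10, a listed alternative, since 0 gastruloids of day 3 reached 20). Sums were tested with edgeR 4.0.16 in R 4.3.3 (quasi-likelihood, TMM, filterByExpr, Benjamini-Hochberg, adjusted p under 0.05), and CPM are on the scale of each fit. The SE is the log2 change divided by the square root of F. Interaction fits had the gastruloid as a block. Shares, mapped stage and depth were compared by two-sided permutation tests in SciPy 1.17.1 (100000 resamples, smallest p 2e-05, exact where fewer regroupings exist). Intervals of the 10X library cover counting error only.

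The members and gene lists were chosen with earlier results of these data known. Named genes are those with the largest rise or fall among calls with a mean of at least 20 CPM in the higher day (12 each way for the whole gastruloid, 8 per cluster, 5 per interaction), plus members of the lists chosen for their role. The self-test on simulated counts recovered 99 of 100 genes changed by 1 log2 unit in whole gastruloids, 98 in Primitive Streak, 100 in Early Neurectoderm, 85 in Caudal Epiblast and 32 in the Early Neurectoderm interaction. Unlike the other 4, the interaction was simulated with 1 fixed spread for all genes and with equal means in both clusters. Its setting thus differs from the data, and the Caudal Epiblast interaction was not simulated. Alternatives were DESeq2 1.42.0, RLE factors, library size alone, mitochondrial and ribosomal protein genes left out, no filter, thinned counts, other cell minimums, each lane left out and, for shares, embryo-mapped types and edgeR on cell numbers.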

Additional observations from a re-analysis of the deposited data

Results flagged for a closer look

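A single distant value was looked for among the genes named by rule in Early Neurectoderm at day 3.5 and Caudal Epiblast at day 3, each in 6 gastruloids. Of these 32 sets of values 4 had one. Chance gives about 1 in 20 for independent and normally distributed values, which these values need not be. In Early Neurectoderm at day 3.5 1 of 6 gastruloids had 64.4 CPM of Meis2, with the next at 35.02 CPM. In Caudal Epiblast at day 3 1 of 6 had 17.9 CPM of Acer2 (next 32.1), 1 had 10.8 CPM of Hoxb3os (next 7.33) and 1 had 11.7 CPM of Sprr2a3 (next 3.58).

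The day effect differed between Early Neurectoderm and Primitive Streak in 777 genes by the interaction test in edgeR, given as the effect in Early Neurectoderm minus that in Primitive Streak on the log2 scale. Among the genes with the largest differences it was higher for Pkdcc (1.595), Nrcam (1.33), Mthfd2 (1.29), Hmga2 (1.05) and Nefl (1.04), of which Pkdcc and Nrcam passed in 9 of 12 alternatives and Nefl in 8, and lower for Defa30 (-3.67), Hes7 (-2.57), Kitl (-2.28), Crabp2 (-2.19) and Hoxb8 (-2.18). Between Caudal Epiblast and Primitive Streak it differed in 311 genes. Here it was higher in Caudal Epiblast for Mixl1 (1.77, a call lost in 3 of 9 alternatives), Uap1l1 (1.48), Grina (1.01), Asns (1.01) and Fn1 (0.98) and lower for Sfrp1 (-2.17), Hoxb8 (-2.16), Apela (-2.11), Gbx2 (-1.97) and Hoxb7 (-1.85).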

How the results depend on the processing

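Without a filter on low counts, genes changed 2-fold or more numbered 2311 in whole gastruloids (683 with it), 1099 in Primitive Streak (281), 262 in Caudal Epiblast (171) and 516 in Early Neurectoderm (116), and the Caudal Epiblast interaction had 671 calls (311). Thinning gave 81 in Caudal Epiblast, and a minimum of 10 cells gave 75 in Early Neurectoderm and 1167 interaction calls in place of 777. Leaving out 1 lane gave 7891 to 8815 calls in whole gastruloids (2-fold, 510 to 675), 5440 to 5713 in Primitive Streak (220 to 333), 1393 to 1451 in Caudal Epiblast (140 to 170) and 2271 to 3434 in Early Neurectoderm (76 to 129). It gave 260 to 621 calls in the Early Neurectoderm interaction and 207 to 274 in that of Caudal Epiblast, 9 to 11 cluster shares and a stage difference of 0.685 to 0.740 days. Leaving out a lane removes cells and gastruloids. Trim28 rose with library size alone in whole gastruloids (0.0808) and had 0.0025 in Primitive Streak, Rpl7l1 turned to 0.0686 in whole gastruloids, and Rps3a1 turned to 0.0477 there, to 0.1159 in Primitive Streak and to 0.0404 in Early Neurectoderm. Fst in Primitive Streak turned from -0.02 to 0.13 with library size alone (edgeR adjusted p = 9.3e-05). The Early Neurectoderm share passed with a minimum of 100 cells (permutation test, adjusted p = 0.0267). The edgeR test on cell counts called 12 of 14 shares, Late Neurectoderm in addition. DESeq2 called 8896 genes in whole gastruloids and 6101 in Primitive Streak. Not run were minimums of 20 and 40 cells and the day 3 lanes left out in Caudal Epiblast and its interaction, and 40 cells in Early Neurectoderm and its interaction, since too few gastruloids were left. No paired analysis was possible because lanes are technical splits of a pool, and a barcode number found on both days belongs to different gastruloids of separate pools.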

Other observations

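Glycolysis and hypoxia genes fell in 16 of 25 tested cases in whole gastruloids and rose in 7, with a median log2 change of -0.28. With library size alone 13 fell and 8 rose, with a median of -0.12, and Pkm changed direction. Ldha, which makes lactate, fell by 0.61 ± 0.09 (edgeR adjusted p = 1.13e-07), from a median of 1065 to 610 CPM, whereas the glucose transporter Slc2a3 rose by 1.45 ± 0.16, from 56.9 to 161 CPM. Within Primitive Streak 9 of 25 were higher and 9 lower, near the 31.7% and 28.6% of all genes there, but 13 higher and 6 lower with library size alone, where Gpi1 and Pkm changed direction, and Ldha fell and Slc2a3 rose there as well.

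Targets of p53 fell in 9 of 12 cases in whole gastruloids and rose in 1, and in Early Neurectoderm they fell in 8 of 11 and rose in 0. Cdkn1a, the cell cycle inhibitor p21, went from a median of 256 to 119 CPM in whole gastruloids (-0.99 ± 0.08, edgeR adjusted p = 5.35e-14). In Primitive Streak 4 of 12 fell and 3 rose, near the shares over all genes there of 28.6% lower and 31.7% higher. Genes known to react to cell dissociation and stress fell in 9 of 15 cases and rose in 1 in whole gastruloids, where 35.6% of all genes fell and 39.3% rose. In Primitive Streak 4 of 14 fell and 3 rose, with a median log2 change of -0.06 against 0.03 for all genes. In Early Neurectoderm 5 of 8 fell and 0 rose. Jund, a member of that list, had medians of 73.0 and 35.9 CPM without overlap (-1.02 ± 0.05).

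Imprinted genes, which are read from 1 parental copy, rose in 8 of 18 cases, near the 39.3% of all genes, and fell in 2 (12 and 1 with library size alone). The growth factor Igf2 rose by 2.10 ± 0.14 (edgeR adjusted p = 2.66e-17), from a median of 3.21 to 14.1 CPM, and Snrpn fell by 1.08 ± 0.07, from 107 to 52.2 CPM, both without overlap. Ribosomal protein genes fell in 80 of 80 cases in whole gastruloids, against 35.6% of all genes, with a median of -0.30. With library size alone the median was -0.14 and 2 of them, Rpl7l1 and Rps3a1, changed direction. In Primitive Streak 79 of 80 fell and in Early Neurectoderm 78. Of those called, 9 and 4 changed direction there with library size alone. In Caudal Epiblast 32 of 80 fell and 48 did not pass, with a median of -0.08. Extraembryonic markers fell in 4 of 6 tested cases, cardiopharyngeal markers rose in 1 and fell in 1 of 4, and the single tested somite marker did not pass.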
